A study of Mus musculus with 44 samples.

Results

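The lysosome and autophagy genes described here are 33 genes chosen by name, each read from probe sets that are annotated to that single gene symbol. They had 78 such probe sets, 67 of them above the filter on dim signals, and all 33 genes were among the 11970 tested of 18193 genes on the array with a single symbol. The cells were CH12.LX, a mouse B cell lymphoma line that lipopolysaccharide (LPS), a component of the outer membrane of gram-negative bacteria, can drive towards antibody secretion. Expression was measured on 44 Affymetrix arrays of type Mouse430_2 in 11 groups of 4. All cells were plated at 100000 per ml. In 5 groups the LPS-activated cells received the dioxin TCDD (2,3,7,8-tetrachlorodibenzo-p-dioxin, a ligand of the aryl hydrocarbon receptor) at 10 nM and were harvested after 8, 12, 24, 36 or 48 h. In 5 more groups they received LPS and the vehicle dimethyl sulfoxide (DMSO, 0.01%) for the same times, and the last group was untreated at 0 h. By the study's design each replicate was handled on its own day, and the array titles give every replicate number 1 date, which all groups share, without saying which step it marks. The line is a single lymphoma, so the arrays stand for cultures of 1 line and not for animals. DMSO cells differ from untreated cells in LPS, vehicle and time in culture at once, and these cannot be told apart.

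Lysosomes are the acidic compartments in which cells break down proteins, glycans, lipids and whole organelles. A proton pump acidifies them, proteases (the cathepsins), glycosidases and lipid hydrolases do the digestion, and membrane proteins protect the limiting membrane or carry cargo and ions across it. Macroautophagy feeds them: a kinase complex with ULK1 and a lipid kinase complex with beclin start a membrane, a ubiquitin-like conjugation system of ATG proteins joins the ATG8 proteins (the LC3 and GABARAP families) to it, and the closed vesicle fuses with a lysosome. In B cells the same compartment loads MHC class II molecules, with cathepsin S cutting the invariant chain, and autophagy is known to sustain plasma cells. TFEB is a transcription factor that binds an E-box element in many of these genes, known as the CLEAR element.

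RefSeq's promoter table (build GRCm38.p6, 250 bases before to 50 bases after each annotated start) held promoters for 27 of the 33 genes, 31 promoters in all, and none for Ctsb, Ctsh, Asah1, Becn1, Atg12 and Map1lc3a. The E-box core CACGTG, which reads the same on both strands, stood in the promoters of 12 of these 27 genes (44.4%), against 8.09% of all 27025 genes in the table. The 12 were Atg3, Atg5, Atg7, Atp6v0d1, Atp6v1a, Ctsa, Ctsd, Ctsl, Gaa, Glb1, Lamp1 and Mcoln1. In Atg3, Atp6v0d1, Atp6v1a, Ctsa, Ctsd and Mcoln1, 6 of 27 genes (22.2%), the core had a T before it and an A after it, an 8-base form of the CLEAR element that stood in 1.12% of all genes. The full 10-base form, with a further G before and a C after, stood in 0 of the 27 genes, against 0.37% of all genes. The core of the dioxin response element, GCGTG on either strand, stood in 13 of 27 (48.1%), against 35.2% of all genes. In these member promoters it shared 0 bases with the E-box core. A match is a string of letters and not a measured binding site. The members were chosen by name from a pathway in which the CLEAR element is already known, so the E-box shares are not an independent result. The following 5 promoters are shown because they hold the densest matches or belong to members whose changes are described further on. Lamp1 (lysosomal membrane glycoprotein, chr8:13158911-13159210, plus strand) has 4 E-box cores, whose first bases lie at -61, -45, -28 and -15 counted from the start at +1. Ctsd (cathepsin D, chr7:142387778-142388077, minus strand) has cores at -245 and -98, Mcoln1 (a lysosomal calcium channel, chr8:3500269-3500568, plus strand) at -71 and -45, and Atp6v0d1 (a subunit of the proton pump, chr8:105566015-105566314, minus strand) at -3. Map1lc3b (the ATG8 protein LC3B, chr8:121590188-121590487, plus strand) has 0 E-box cores and 5 copies of GCGTG counted over both strands. Each is printed 5′ to 3′ on the gene's strand, and capitals mark CACGTG, except in Map1lc3b, where they mark GCGTG or its reverse complement.
Lamp1: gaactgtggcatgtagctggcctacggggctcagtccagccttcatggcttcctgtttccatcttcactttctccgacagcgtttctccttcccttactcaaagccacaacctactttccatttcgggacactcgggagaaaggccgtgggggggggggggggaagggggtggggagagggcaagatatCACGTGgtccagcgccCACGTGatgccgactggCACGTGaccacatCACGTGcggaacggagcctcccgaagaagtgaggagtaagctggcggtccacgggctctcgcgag
Ctsd: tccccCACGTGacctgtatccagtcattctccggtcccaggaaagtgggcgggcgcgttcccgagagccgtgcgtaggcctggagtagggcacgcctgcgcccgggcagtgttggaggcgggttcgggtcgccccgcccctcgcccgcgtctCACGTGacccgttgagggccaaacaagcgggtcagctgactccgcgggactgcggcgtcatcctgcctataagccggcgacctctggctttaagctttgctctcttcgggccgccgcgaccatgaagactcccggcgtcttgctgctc
Mcoln1: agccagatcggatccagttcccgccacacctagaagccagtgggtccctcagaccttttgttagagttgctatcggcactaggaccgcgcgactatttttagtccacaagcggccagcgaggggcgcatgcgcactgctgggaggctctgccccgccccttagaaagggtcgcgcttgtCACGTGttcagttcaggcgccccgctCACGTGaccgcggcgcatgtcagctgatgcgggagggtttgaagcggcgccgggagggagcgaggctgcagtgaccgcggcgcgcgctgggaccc
Atp6v0d1: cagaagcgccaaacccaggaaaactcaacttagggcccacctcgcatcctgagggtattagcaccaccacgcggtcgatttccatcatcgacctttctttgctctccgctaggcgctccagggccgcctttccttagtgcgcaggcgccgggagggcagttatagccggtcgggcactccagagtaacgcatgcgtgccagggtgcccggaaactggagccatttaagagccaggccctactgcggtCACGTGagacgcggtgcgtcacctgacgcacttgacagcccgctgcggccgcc
Map1lc3b: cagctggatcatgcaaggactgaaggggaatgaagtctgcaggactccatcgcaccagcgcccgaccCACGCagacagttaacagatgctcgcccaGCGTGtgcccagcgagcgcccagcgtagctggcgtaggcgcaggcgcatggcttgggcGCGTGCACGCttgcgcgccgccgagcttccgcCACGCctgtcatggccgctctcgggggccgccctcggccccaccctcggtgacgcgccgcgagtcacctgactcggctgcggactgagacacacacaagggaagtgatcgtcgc

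Values below are log2(signal + 16) after quantile normalization, 1 probe set per gene, with 4 arrays in every group listed from replicate 1 to 4. A change is a difference of group means on that scale, given ± its standard error (SE), and a gene is called higher or lower where the adjusted p from limma, fitted across all 11970 genes and adjusted by Benjamini-Hochberg, is under 0.05. A call is also given where an alternative ended it, such as a fit of only the arrays compared or of all probe sets, and where that alternative left the change equal to 2 decimals its adjusted p stands alone. Because signals of different probe sets depend on the probes, levels are compared within a gene only. The median signal of an array ran from 45.2 to 99.2, and replicate arrays correlated across probe sets with r from 0.949 to 0.980. Replicate 2 of DMSO 48 h, replicate 4 of DMSO 12 h and replicates 3 and 4 of the untreated arrays stood apart in median signal, in the 3′ to 5′ ratio of the transferrin receptor control or in their correlation with their replicates, so results are also given without these 4 arrays where that ended a call or moved a called value by over 1.5 times. Cyp1a1, the standard target of the aryl hydrocarbon receptor, was higher in TCDD than in DMSO cells by 4.50 to 6.01 at the 5 times. All 6 B cell markers that the array names (Cd79a, Cd79b, Ms4a1, Ighm, Cd22 and Pax5) lay above the filter by their highest group mean, as the label of a B cell line has it. Pax5 was dim, with 6.79 in untreated cells. It lay below the filter at 6.21 in TCDD cells at 12 h (5.99) and in TCDD and DMSO cells at 24 and 36 h (6.01 to 6.11). Their summed linear signal averaged 12166, 10579, 13513, 16535 and 17159 in DMSO cells at 8, 12, 24, 36 and 48 h, against 25781 in untreated cells, and the untreated arrays (23262 to 26996) lay above those of all 5 DMSO groups. TCDD and DMSO arrays overlapped in this sum at all 5 times. The part of this shift in the members' changes against untreated cells was not tested. Of 8 macrophage and myeloid markers, 6 lay above the filter. Their summed linear signal, over all 8, ran from 2393 to 3479 in TCDD arrays, against 1356 to 2708 in DMSO arrays and 1754 to 2235 in untreated arrays. At 48 h the ranges overlapped (2471 to 2897 in TCDD and 2197 to 2708 in DMSO arrays), and at 8 to 36 h they did not. The defining myeloid genes Itgam and Lyz2 lay at or below the filter, while Csf1r averaged 10.48, 10.64, 10.52, 10.27 and 10.10 in TCDD cells at the 5 times, against 8.66, 8.76, 8.82, 8.69 and 8.34 in DMSO cells. Adgre1, the macrophage marker F4/80, averaged 9.21, 9.08, 8.25, 8.25 and 8.62 in TCDD cells, against 8.60, 8.38, 7.31, 7.43 and 7.68 in DMSO cells. Other markers of the list did not rise throughout. Cd68 averaged 10.00, 9.96, 9.65, 9.51 and 10.07 in TCDD cells, against 9.96, 9.73, 9.43, 9.75 and 10.67 in DMSO cells. Cd14 and Fcgr1 had lower TCDD means at 8 and 48 h and higher ones at 12, 24 and 36 h. Mpo had lower TCDD means at 8, 12, 36 and 48 h, with 4.98 against 6.49 at 48 h. Cd14, Fcgr1 and Mpo were dim, however, with many group means below the filter at 6.21. Their means ran from 5.61 to 6.62, 5.62 to 6.27 and 4.98 to 6.49. Some differences were minute, such as 6.274 against 6.271 for Fcgr1 at 24 h, so these directions are a description only. The part of the myeloid marker signal in the TCDD results was not tested. Of 4 T cell markers 3 lay above the filter, with Cd8a the brightest at group means of 8.62 to 9.38 and Cd4 at or below the filter, and their summed signal averaged 473 to 751 over the 11 groups. The sums were 27.4 to 54.2 for 2 NK cell markers, 163 to 229 for 4 fibroblast markers and 217 to 338 for 4 epithelial markers, of which 0, 2 and 2 lay above the filter. Since the arrays measure a mixture of cells, a change in the share of cells that express a gene and a change in its RNA per cell cannot be told apart.

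During activation with vehicle most members were not called at 8, 12, 24 or 36 h (23, 24, 28 and 27 of 33), and at 48 h most were called higher. At 8 and 12 h the members called lower outnumbered those called higher. At 8 h, 1 member was called higher and 9 lower in DMSO than in untreated cells, or 3.03% and 27.3% of the 33, beside 11.2% and 13.4% of all genes tested. At 12 h the members split into 2 higher and 7 lower (all genes 11% and 13.8%), at 24 h into 1 and 4 (9.39% and 10.3%) and at 36 h into 2 and 4 (15.4% and 15.9%). All 4 DMSO arrays lay below all 4 untreated ones for 5 members at 8 h and 5 at 12 h. These were 15.2% of the members each time, closer to the 11.5% and 10.8% of all genes than the shares called lower were. At 48 h, 17 members were called higher and 3 lower, or 51.5% and 9.09%, beside 23.4% and 20.5% of all genes, and 10 members had all 4 DMSO arrays above all 4 untreated ones (30.3%, beside 17.4% of all genes) and 2 all below (6.06%, beside 14.5%). With the replicate number as a block (the replicate block below) the counts were 3 and 6 at 24 h (all genes 13.8% and 13.9%) and 6 and 6 at 36 h (19.4% and 20%). Without the 4 arrays standing apart the counts were 4 and 4 at 24 h and 17 and 3 at 48 h, given without a share of all genes. Leaving these arrays out ended the lower calls of Lamp1, Ctsd and Hexa at 8 h and of Tfeb, Ctss and Hexa at 12 h. It also ended the higher call of Atp6v1a at 12 h. The median change of the 33 members was -0.16 at 8 h and 0.21 at 48 h, while that of all genes was -0.02 and 0.02. These 5 comparisons share the 4 untreated arrays, so they are not independent of each other. Comparing DMSO cells at 48 h with DMSO cells at 8 h takes no untreated array into the difference of means. It shares the DMSO arrays with the others, and its errors and calls come from the fit of all groups, the untreated arrays included. This comparison called 19 members higher and 1 lower (57.6% and 3.03%), beside 26.8% and 21.2% of all genes. The median change was 0.47 for the members and 0.04 for all genes.

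**Figure D1:**
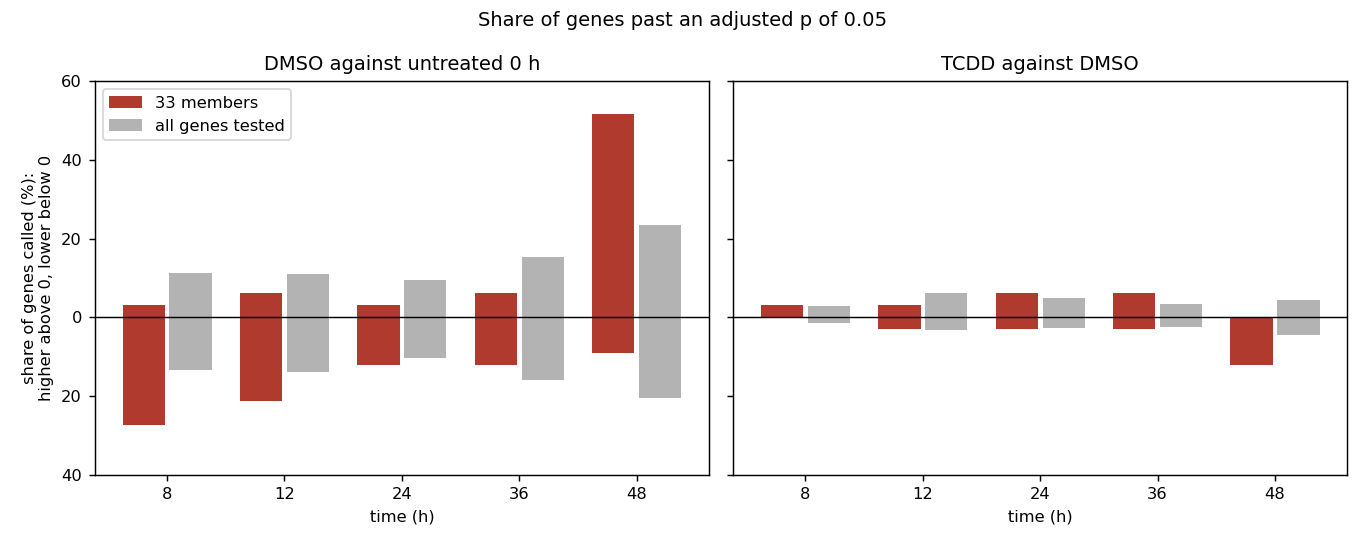
Share of genes called higher (above 0) and lower (below 0) at each time in DMSO against untreated cells (left) and in TCDD against DMSO cells (right), for the 33 members (red) and all 11970 genes tested (grey). At 48 h in DMSO cells 51.5% of the members were called higher, beside 23.4% of all genes, while the TCDD bars stay at or below 12.1% for the members.

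Tfeb, the transcription factor of the pathway, made the largest change of any member at 8 h. It gave 7.84, 7.94, 7.90 and 7.94 in DMSO cells at 8 h, against 8.75, 9.17, 9.35 and 9.52 in untreated cells. The DMSO arrays were close together and below every untreated array. The change was -1.29 ± 0.22 (adjusted p = 2.84e-05, limma). At 12 h it was -0.98 ± 0.22 (adjusted p = 0.000995) with overlapping arrays, since DMSO replicate 3 at 8.83 exceeded untreated replicate 1 at 8.75. The 12 h change without the 4 arrays standing apart was -0.67 and no longer called (adjusted p = 0.118). From 24 h on Tfeb was not called (-0.20, 0.07 and -0.12 at 24, 36 and 48 h), and at 48 h it was higher than at 8 h of DMSO by 1.17 ± 0.22 (adjusted p = 4.05e-05).

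Of the 4 membrane proteins, Lamp1 and Scarb2 changed and Lamp2 and Mcoln1 did not pass the test against untreated cells at any time. Lamp1, one of the most abundant glycoproteins of the lysosomal membrane, gave 10.89, 10.93, 10.68 and 10.70 in DMSO cells at 48 h, against 11.20, 11.39, 11.66 and 12.05 in untreated cells. All 4 DMSO arrays lay below all 4 untreated ones, and the change was -0.78 ± 0.15 (adjusted p = 5.03e-05). Replicate 4 of the untreated arrays was the highest, and it is 1 of those that stood apart. Lamp1 was also lower at 36 h (-0.84, adjusted p = 3.45e-05, and -0.56, adjusted p = 0.00479, without the 4 arrays standing apart). Its lower values at 8 h (-0.41, adjusted p = 0.0421) and 24 h (-0.41, adjusted p = 0.0478) came with overlapping arrays. These were, with the 4 arrays standing apart left out, -0.13 (adjusted p = 0.609) and -0.13 (adjusted p = 0.64). The 8 h call was also lost with only the arrays compared, without the filter and with all probe sets tested (adjusted p = 0.196, 0.0685 and 0.0978), on the values as deposited (-0.37, adjusted p = 0.0504), and without replicate 2, 3 or 4 (-0.48, -0.43 and -0.21, adjusted p = 0.083, 0.127 and 0.287). The 24 h call was lost with only the arrays compared, without the filter and with all probe sets tested (adjusted p = 0.21, 0.0767 and 0.108) and without replicate 2, 3 or 4 (-0.44, -0.44 and -0.24, adjusted p = 0.135, 0.137 and 0.245). Lamp1 was the 1 member called lower at 48 h than at 8 h of DMSO (-0.37, adjusted p = 0.0395). The call was lost without the filter and with all probe sets tested (adjusted p = 0.0631 and 0.0875) and without replicate 1, 2 or 3 (-0.42, -0.40 and -0.28, adjusted p = 0.0579, 0.0984 and 0.244). Its promoter is the one with 4 E-box cores.

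Scarb2, the receptor LIMP-2 that carries glucocerebrosidase to lysosomes, was lower in DMSO than in untreated cells at 8, 12, 24 and 36 h, with changes of -0.51, -0.84, -0.87 and -0.45. The adjusted p were 0.00497, 1.11e-05, 6.96e-06 and 0.0106, and in each case the 4 DMSO arrays lay below the 4 untreated ones. At 48 h the difference was 0.15 (adjusted p = 0.407). The 8 h call was lost without replicate 3 (-0.46, adjusted p = 0.0552). The 36 h call was lost with only the arrays compared (adjusted p = 0.0833), without the 4 arrays standing apart (-0.44, adjusted p = 0.0666), and without replicate 3 or 4 (-0.36 and -0.36, adjusted p = 0.124 and 0.0829).

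Both proton pump members were higher at 48 h. Atp6v1a, the catalytic subunit of the pump, was called at 12, 24, 36 and 48 h, with changes of 0.23, 0.35, 0.30 and 0.48 and adjusted p of 0.0398, 0.00227, 0.00517 and 1.13e-05. The DMSO arrays lay above the untreated ones at all 4 of these times. The 12 h call was lost without the 4 arrays standing apart (0.23, adjusted p = 0.132). It was also lost with only the arrays compared, without the filter and with all probe sets tested (adjusted p = 0.196, 0.0729 and 0.121), on the mean of its probe sets (0.20, adjusted p = 0.0662), and without replicate 2, 3 or 4 (0.22, 0.21 and 0.21, adjusted p = 0.0933, 0.148 and 0.197). The 36 h call was lost with only the arrays compared (adjusted p = 0.0513). Atp6v0d1, a subunit of the membrane sector, was called at 48 h (0.45 ± 0.10, adjusted p = 0.000401), a call lost with only the arrays compared (adjusted p = 0.0526).

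Among the 7 proteases, 3 were called higher and 0 lower at 48 h (limma), also at an unadjusted p under 0.05. Ctsd, the aspartic protease cathepsin D, gave 10.81, 11.45, 10.93 and 11.07 in DMSO cells at 48 h, against 9.60, 10.03, 10.54 and 10.47 in untreated cells. The groups lay apart, with a change of 0.90 ± 0.17 (adjusted p = 2.68e-05). Ctsb, the cysteine protease cathepsin B, gave 12.72, 12.88, 12.85 and 12.76 in DMSO cells at 48 h, against 11.73, 12.06, 12.10 and 12.09 in untreated cells, a difference of 0.81 ± 0.10 (adjusted p = 9.53e-09). Its DMSO arrays spanned a narrow range well above the untreated ones, and 2 of its 3 other probe sets above the filter were called higher as well, with the remaining one at 0.13. At 36 h Ctsb was higher by 0.34 (adjusted p = 0.00513), a call lost with only the arrays compared (adjusted p = 0.0842), on the mean of its probe sets (0.14, adjusted p = 0.452) and without replicate 2 (0.33, adjusted p = 0.0535). Ctsd was lower at 8 h (-0.44, adjusted p = 0.0477) with overlapping arrays. Without the 4 arrays standing apart that value was -0.10 (adjusted p = 0.751). The call was also lost with only the arrays compared, without the filter and with all probe sets tested (adjusted p = 0.298, 0.0764 and 0.106), on the values as deposited (-0.46, adjusted p = 0.0526), and without replicate 2, 3 or 4 (-0.49, -0.43 and -0.38, adjusted p = 0.131, 0.171 and 0.214).

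Ctsh, the aminopeptidase cathepsin H, was lower in DMSO than in untreated cells over the same times as Scarb2, with changes of -0.61, -0.79, -0.74 and -0.37 at 8, 12, 24 and 36 h (adjusted p = 8.83e-06, 9.07e-08, 3.92e-07 and 0.00387) with all DMSO arrays below all untreated arrays, and differed by 0.16 at 48 h (adjusted p = 0.208). The 36 h value without the 4 arrays standing apart was -0.32 (adjusted p = 0.0519). Ctss, the invariant chain protease cathepsin S, moved little: it was lower at 12 h (-0.19, adjusted p = 0.0307) and higher at 48 h (0.16, adjusted p = 0.0443). Its 12 h call was lost without the 4 arrays standing apart (-0.15, adjusted p = 0.196). It was also lost with only the arrays compared, without the filter and with all probe sets tested (adjusted p = 0.337, 0.0641 and 0.122), on the values as deposited (-0.15, adjusted p = 0.153), and without replicate 1, 2, 3 or 4 (-0.20, -0.18, -0.24 and -0.15, adjusted p = 0.0832, 0.149, 0.0614 and 0.144). Its 48 h value was 0.26 without those 4 arrays (adjusted p = 0.00741). The 48 h call was lost with only the arrays compared, without the filter, with all probe sets tested and with a pseudocount of 64 (adjusted p = 0.332, 0.0855, 0.154 and 0.0503), on the values as deposited (0.12, adjusted p = 0.178), and without replicate 1, 2 or 3 (0.12, 0.17 and 0.15, adjusted p = 0.251, 0.128 and 0.184). Ctsa, Ctsl and Ctsz were not called against untreated cells at any time without a replicate block, and Ctsl passed the filter only through its mean of 6.39 in DMSO cells at 48 h.

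Of the 7 glycosidases and lipid hydrolases, 5 were higher and 2 lower at 48 h. Glb1, the lysosomal beta-galactosidase, gave 10.67, 10.77, 10.96 and 10.41 in DMSO cells at 48 h, against 9.61, 9.92, 10.11 and 9.99 in untreated cells. The arrays did not overlap and the change was 0.79 ± 0.12 (adjusted p = 1.33e-06). Neu1, the lysosomal sialidase, gave 10.03, 10.32, 10.30 and 10.12 in DMSO cells at 48 h, against 9.12, 9.62, 9.87 and 9.80 in untreated cells, a change of 0.59 ± 0.15 (adjusted p = 0.00183). Neu1 was the 1 member already higher at 8 h (0.57, adjusted p = 0.00495) and stayed on that side at 12 h (0.60, adjusted p = 0.00314), both with overlapping arrays, since DMSO replicate 1 lay within the untreated range at both times. On the mean of its probe sets Neu1 was not called at 8, 12 or 48 h (0.45, 0.24 and 0.23, with adjusted p of 0.226, 0.575 and 0.502), and its 8 h call was lost without replicate 2 (0.53, adjusted p = 0.0622). With only the arrays compared the 8 and 12 h calls were lost as well (adjusted p = 0.105 and 0.0897). Gaa, the acid alpha-glucosidase that digests glycogen, was higher at 48 h by 0.71 (adjusted p = 0.00523), Asah1, the acid ceramidase, by 0.52 (adjusted p = 0.0021) and Hexa, a beta-hexosaminidase subunit, by 0.48 (adjusted p = 0.000654), all 3 with overlapping arrays. Gaa's call was lost without replicate 2 (0.62, adjusted p = 0.0546). Asah1's was lost with only the arrays compared (adjusted p = 0.0995) and without replicate 3 (0.34, adjusted p = 0.109), and Hexa's with only the arrays compared (adjusted p = 0.0906) and without replicate 2 (0.31, adjusted p = 0.0636).

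Asah1 and Hexa had been lower at 8 h (-0.44, adjusted p = 0.0155, and -0.44, adjusted p = 0.00341), and Hexa at 12 h too (-0.36, adjusted p = 0.0152). The Asah1 call at 8 h was lost with only the arrays compared (adjusted p = 0.127) and without replicate 1 or 4 (-0.46 and -0.33, adjusted p = 0.0881 and 0.172). For Hexa, leaving out the 4 arrays standing apart gave -0.17 at 8 h (adjusted p = 0.258) and -0.17 at 12 h (adjusted p = 0.34). Its 8 h call was also lost with only the arrays compared (adjusted p = 0.121) and without replicate 3 (-0.35, adjusted p = 0.0934), and its 12 h call with only the arrays compared (adjusted p = 0.255) and without replicate 3 or 4 (-0.32 and -0.35, adjusted p = 0.131 and 0.0514). Psap, the precursor of the saposins that help lipid hydrolases, was lower at every time, with changes of -0.89, -0.95, -0.77, -0.81 and -0.49 at 8, 12, 24, 36 and 48 h, with the largest adjusted p, 0.00156, at 48 h. At each of the 5 times all 4 DMSO arrays lay below all 4 untreated ones. Gusb, the beta-glucuronidase, was lower at 12 h (-0.28, adjusted p = 0.00504) and 48 h (-0.20, adjusted p = 0.0243). The 12 h call was lost with only the arrays compared (adjusted p = 0.157) and on the mean of its probe sets (-0.04, adjusted p = 0.841). The 48 h call was lost with only the arrays compared and with all probe sets tested (adjusted p = 0.295 and 0.0895), on the mean of its probe sets (-0.14, adjusted p = 0.301), and without replicate 1 or 3 (-0.18 and -0.12, adjusted p = 0.122 and 0.325).

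**Figure D2:**
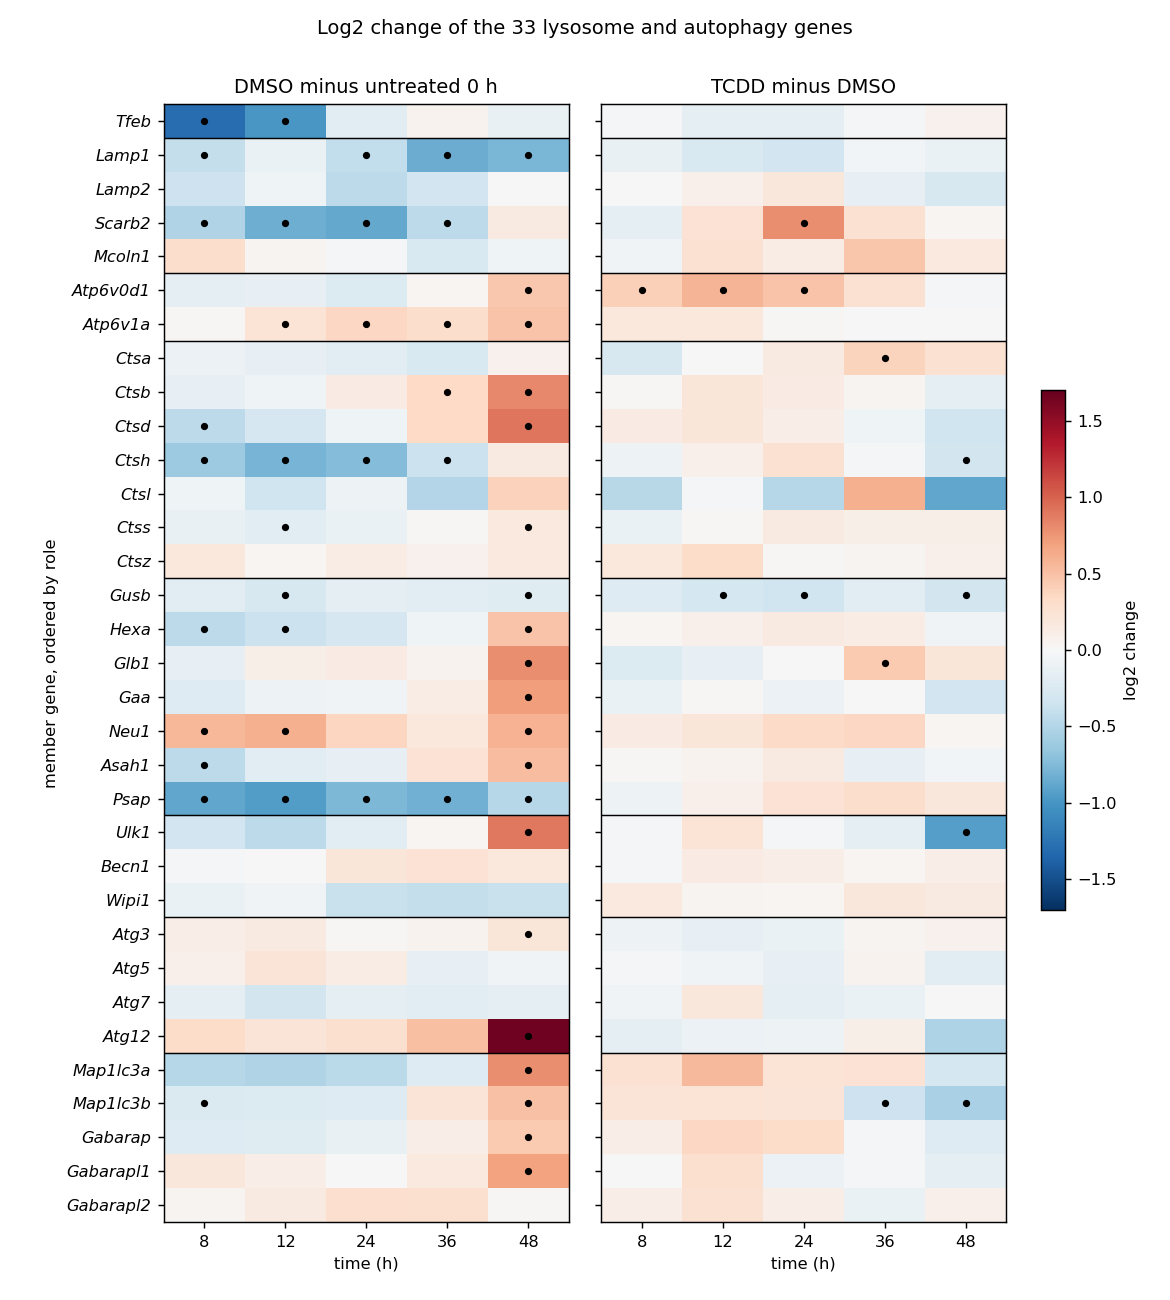
Log2 change of each of the 33 members at 5 times (h), for DMSO minus untreated cells (left) and TCDD minus DMSO cells (right), with red for higher and blue for lower and a dot where limma's adjusted p is under 0.05. Horizontal lines part the roles, from transcription factor at the top to the ATG8 family at the bottom. Dots lie mostly on blue at 8 h and on red at 48 h in the left panel, and 8 members carry a dot in the right panel.

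Most calls of autophagy members came at 48 h. Of the 3 initiation genes, Ulk1, the kinase that starts autophagosome formation, was called, while Becn1 and Wipi1 were not at any time. Ulk1 gave 8.80, 9.17, 8.61 and 8.29 in DMSO cells at 48 h, against 7.48, 7.60, 8.04 and 8.17 in untreated cells. The lowest DMSO array, 8.29, lay above the highest untreated array, 8.17, and the change was 0.89 ± 0.20 (adjusted p = 0.000314). Of the conjugation genes, Atg12, whose product is the ubiquitin-like protein joined to ATG5, had the largest change of all members at 48 h. It gave 10.13, 9.76, 9.78 and 9.15 in DMSO cells, against 8.46, 8.01, 8.11 and 7.60 in untreated cells, a change of 1.66 ± 0.20 (adjusted p = 2.20e-08). In both groups replicate 1 was highest and replicate 4 lowest, and the differences between arrays of the same number were more even than the levels. Its other probe set above the filter was higher too, by 1.40. Atg3, the enzyme that passes ATG8 proteins to lipid, was higher by 0.21 (adjusted p = 0.0368) with overlapping arrays. That call was lost with only the arrays compared, without the filter and with all probe sets tested (adjusted p = 0.32, 0.0664 and 0.112), on the values as deposited (0.17, adjusted p = 0.114), on the mean of its probe sets (0.10, adjusted p = 0.615), and without replicate 1, 3 or 4 (0.23, 0.11 and 0.20, adjusted p = 0.0668, 0.4 and 0.166). Atg5 and Atg7 were not called.

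Of the 5 ATG8 genes, 4 were called higher at 48 h. Gabarapl1 gave 10.60, 10.51, 10.74 and 10.10 in DMSO cells at 48 h, against 9.55, 9.72, 9.86 and 10.09 in untreated cells. The groups barely separated, with replicate 4 lowest among the DMSO arrays and highest among the untreated ones, and the change was 0.68 ± 0.12 (adjusted p = 2.35e-05). Map1lc3b was higher by 0.50 (adjusted p = 3.14e-05) with no overlap, and Gabarap by 0.45 (adjusted p = 0.00157) with overlap. The Gabarap call was lost with only the arrays compared (adjusted p = 0.0609). Map1lc3a was higher by 0.80 (adjusted p = 0.0119). Its untreated arrays were spread from 7.05 to 8.44, the 2 highest being replicates 3 and 4 that stood apart, and without the 4 arrays standing apart its change was 1.26 (adjusted p = 6.32e-05). It lost its call with only the arrays compared (adjusted p = 0.116) and without replicate 2 (0.50, adjusted p = 0.266). Gabarapl2 did not pass the test at 48 h (0.02, adjusted p = 0.893). At 8 h Map1lc3b had been lower (-0.25, adjusted p = 0.0478), and the value was -0.38 without the 4 arrays standing apart (adjusted p = 0.0122). This call was lost with only the arrays compared, without the filter and with all probe sets tested (adjusted p = 0.21, 0.0843 and 0.134), on the values as deposited (-0.22, adjusted p = 0.127), and without replicate 1, 2 or 3 (-0.23, -0.21 and -0.23, adjusted p = 0.112, 0.24 and 0.186).

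**Figure D3:**
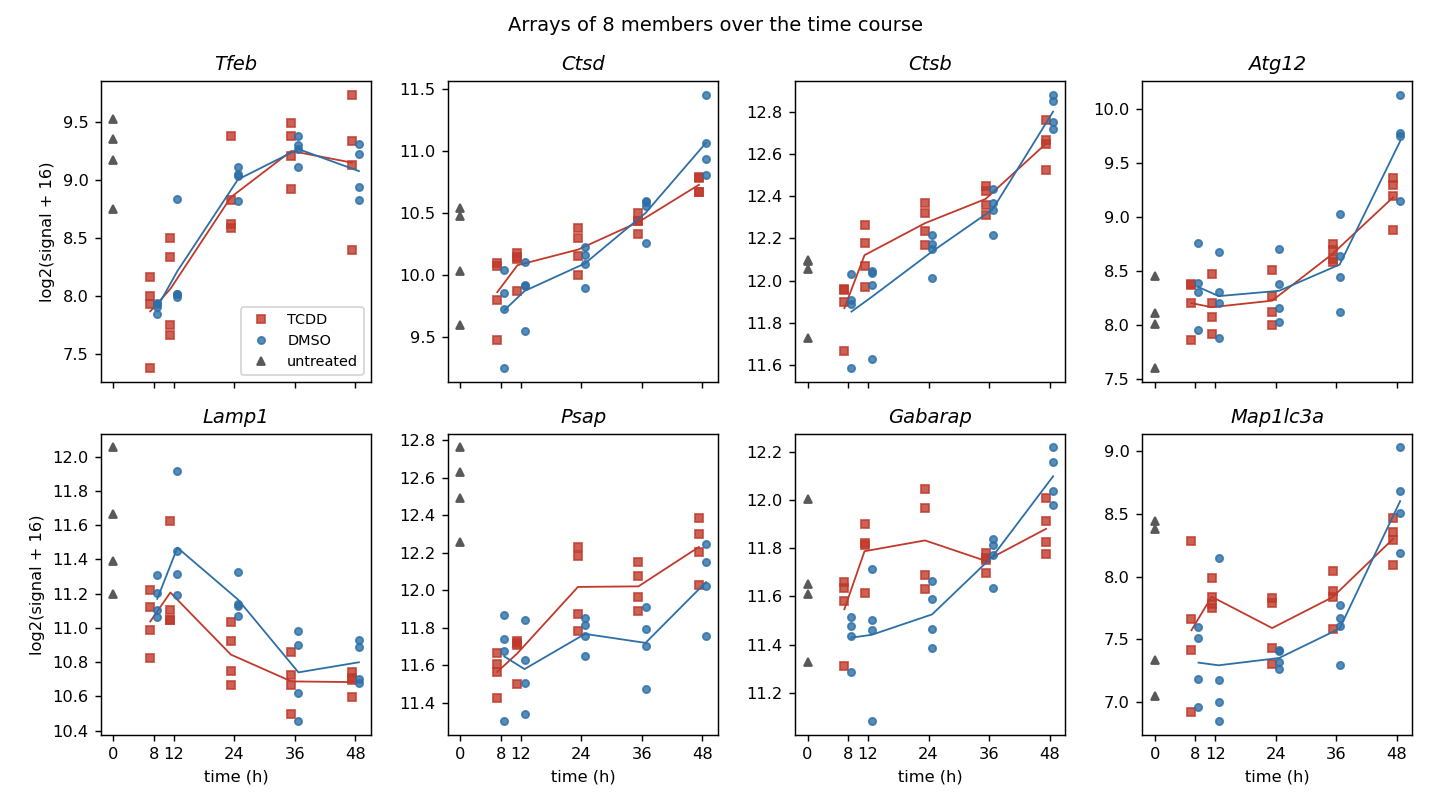
Log2(signal + 16) of Tfeb, Ctsd, Ctsb, Atg12, Lamp1, Psap, Gabarap and Map1lc3a on every array over time (h), with TCDD arrays as red squares, DMSO arrays as blue circles and untreated arrays as grey triangles at 0 h. Lines join group means, and points are shifted sideways so that TCDD stands left of DMSO at the same time. Tfeb has its low at 8 h and Ctsd its high at 48 h in DMSO cells, while Psap in DMSO cells lies below its untreated arrays throughout.

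Set against DMSO cells at 8 h, the 48 h DMSO cells were higher in Tfeb, Scarb2, both pump genes, 4 proteases, 5 glycosidases and lipid hydrolases, Ulk1, Atg12 and 4 ATG8 genes. The largest of these changes were 1.35 ± 0.20 for Atg12, 1.35 ± 0.17 for Ctsd, 1.28 ± 0.26 for Map1lc3a and 1.22 ± 0.20 for Ulk1, with adjusted p of 8.90e-07, 1.84e-08, 8.45e-05 and 3.07e-06. Of the 33 members, 17 had all 4 arrays of 48 h above all 4 of 8 h (51.5%, beside 22.5% of all genes) and Lamp1 was the 1 member with all arrays below (3.03%, beside 17.5%). Psap, lower than in untreated cells at both times, was higher at 48 h than at 8 h by 0.40 (adjusted p = 0.00886), a call lost with only the arrays compared (adjusted p = 0.0763) and without replicate 2 (0.34, adjusted p = 0.117). Neu1 did not differ detectably between these times (0.02 ± 0.15, adjusted p = 0.939).

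With the replicate block, further members passed the test against untreated cells, and so did more of all genes. Of all genes, 32.4%, 32.9%, 27.7% and 39.5% were called with it at 8, 12, 24 and 36 h. Without it these shares were 24.6%, 24.8%, 19.7% and 31.3%, so the added calls are not read as particular to the members. At 8 h these were Atg12 (0.31, adjusted p = 0.0255), which was higher, and Gusb (-0.20, adjusted p = 0.0173) and Gabarap (-0.22, adjusted p = 0.0461), which were lower. At 12 h Map1lc3b (-0.23, adjusted p = 0.0301) was lower. At 24 h Neu1 (0.36, adjusted p = 0.000883) and Gabarapl2 (0.29, adjusted p = 0.0354) were higher, and Hexa (-0.29, adjusted p = 0.0407) and Map1lc3b (-0.23, adjusted p = 0.0374) lower. The largest number came at 36 h, when the autophagy genes Atg12 (0.52, adjusted p = 0.000206), Map1lc3b (0.22, adjusted p = 0.0342) and Gabarapl2 (0.27, adjusted p = 0.034) and the protease Ctsd (0.34, adjusted p = 0.0224) were higher. At the same time Ctsa (-0.26, adjusted p = 0.0415) and Gusb (-0.19, adjusted p = 0.0191) were lower. Between 48 and 8 h of DMSO, Mcoln1 passed as lower (-0.37, adjusted p = 0.0126).

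Adding TCDD to the activated cells was compared with vehicle at the same time. Members called higher and lower numbered 1 and 0 at 8 h (all genes 2.75% and 1.4%), 1 and 1 at 12 h (6.07% and 3.14%), 2 and 1 at 24 h (4.8% and 2.77%), 2 and 1 at 36 h (3.49% and 2.4%) and 0 and 4 at 48 h (4.31% and 4.54%). In all, 8 members (24.2%) were called at 1 or more times, beside 20.2% of all genes, so the share of members called is close to that of all genes. At an unadjusted p under 0.05 there were 3 and 2 at 8 h and 1 and 6 at 48 h, counts given without a share of all genes. With the replicate block, which takes differences between replicate numbers out of the spread, the counts were 1 and 1, 3 and 1, 5 and 1, 5 and 1, and 0 and 8 at the 5 times, beside 4.92% and 3.47%, 9.9% and 6.39%, 7.26% and 6.32%, 6.06% and 4.86%, and 7.47% and 8.15% of all genes. The 8 include Ctsl, which passed the filter only through its DMSO 48 h mean, and were 7 without it. Without the 4 arrays standing apart and without the block, the counts were 1 and 1 at 8 h and 4 and 1 at 12 h. No share of all genes stands beside these counts, so they are not read as particular to the members. The effect of TCDD differed between times for 5 members by an F test in limma (Map1lc3b, adjusted p = 3.47e-05; Scarb2, 0.0105; Atp6v0d1, 0.0382; Glb1, 0.0390; Ulk1, 0.0400), beside 6.98% of all genes, and for 10 members with the replicate block, beside 16% of all genes.

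Scarb2 gave 9.95, 9.77, 9.36 and 9.53 in TCDD cells at 24 h, against 9.03, 8.89, 8.83 and 8.70 in DMSO cells. Every TCDD array was above every DMSO array, and the change was 0.79 ± 0.14 (adjusted p = 7.95e-05). Its other probe set above the filter changed by 0.44 without passing the test over all probe sets. At the other times Scarb2 was not called, with changes of -0.16, 0.24, 0.26 and 0.03 at 8, 12, 36 and 48 h.

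Atp6v0d1 was the 1 member called higher at 3 times. At 12 h it gave 10.94, 11.15, 11.02 and 11.18 in TCDD cells, against 10.16, 10.46, 10.51 and 10.83 in DMSO cells. The groups lay apart, with the nearest DMSO array being replicate 4, which stood apart in the technical measures. The changes were 0.41 ± 0.10 at 8 h, 0.58 ± 0.10 at 12 h and 0.48 ± 0.10 at 24 h (adjusted p = 0.0127, 0.000138 and 0.00131), with no overlap at any of the 3 times. At 36 h the value was 0.26 (adjusted p = 0.15) and at 48 h -0.02 (adjusted p = 0.957). The 8 h call was lost with only the arrays compared and with all probe sets tested (adjusted p = 0.0565 and 0.0601) and without replicate 2, 3 or 4 (0.41, 0.45 and 0.40, adjusted p = 0.132, 0.0641 and 0.0651), the 12 h call with only the arrays compared (adjusted p = 0.0769), and the 24 h call without replicate 2 (0.41, adjusted p = 0.0914). The printed promoter of Atp6v0d1 holds both motifs, with 1 E-box core and 2 copies of GCGTG counted over both strands. Among the other members called with TCDD, GCGTG stood in promoters of Ctsa, called higher, and of Gusb, Map1lc3b and Ulk1, called lower. It was absent from those of Scarb2 and Glb1, both called higher, and stood in 35.2% of all genes. The part of the motif in these changes was not tested.

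Of the 7 cathepsins, Ctsa was higher at 36 h and Ctsh lower at 48 h, and the other five were not called at any time without a replicate block. Ctsa, the carboxypeptidase that also stabilises the lysosomal sialidase and beta-galactosidase, gave 9.75, 9.65, 9.86 and 9.81 in TCDD cells at 36 h, against 9.33, 9.25, 9.60 and 9.37 in DMSO cells. The groups did not overlap, although TCDD replicate 2 and DMSO replicate 3 came within 0.1 of each other, and the change was 0.38 ± 0.12 (adjusted p = 0.0494). This call was lost with only the arrays compared, without the filter, with all probe sets tested and with an intensity trend (adjusted p = 0.0813, 0.0873, 0.161 and 0.05002), on the mean of its probe sets (0.09, adjusted p = 0.855), and without replicate 1, 2, 3 or 4 (0.37, 0.38, 0.42 and 0.36, adjusted p = 0.161, 0.286, 0.0673 and 0.159). Its other probe set above the filter gave -0.20. Ctsh gave 12.91, 12.75, 12.66 and 12.38 in TCDD cells at 48 h, against 13.12, 13.02, 13.02 and 12.78 in DMSO cells. Replicate 1 was highest in both groups and the groups overlapped, while the TCDD array was lower in 4 of 4 pairs of the same number, and the change was -0.31 ± 0.10 (adjusted p = 0.0427). That call was lost with only the arrays compared, without the filter and with all probe sets tested (adjusted p = 0.314, 0.0768 and 0.138), without the 4 arrays standing apart (-0.30, adjusted p = 0.08), and without replicate 2, 3 or 4 (-0.32, -0.29 and -0.28, adjusted p = 0.241, 0.191 and 0.117). With the replicate block Ctsb was called higher at 12 h (0.20, adjusted p = 0.0497) and Ctsd lower at 48 h (-0.34, adjusted p = 0.0498). Ctsl averaged 5.50 in TCDD and 6.39 in DMSO cells at 48 h. Since that DMSO mean alone brought it past the filter at 6.21, its difference at 48 h is a description, and its pass with the replicate block is not read as a call.

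Gusb was lower at 3 times. At 24 h it gave 12.04, 12.11, 12.08 and 12.09 in TCDD cells, against 12.37, 12.45, 12.38 and 12.46 in DMSO cells. Both groups were tight and apart. The changes were -0.29 ± 0.07 at 12 h, -0.33 ± 0.07 at 24 h and -0.31 ± 0.07 at 48 h (adjusted p = 0.00845, 0.00238 and 0.00503), with all TCDD arrays below all DMSO arrays each time. At 8 and 36 h it was -0.22 and -0.18 (adjusted p = 0.0945 and 0.194, and with the replicate block 0.0251 and 0.0708). The 12 h call was lost with only the arrays compared, on the mean of its probe sets and with all probe sets tested (adjusted p = 0.112, 0.0859 and 0.0559) and without replicate 2 or 3 (-0.27 and -0.26, adjusted p = 0.0877 and 0.094), and the 48 h call with only the arrays compared (adjusted p = 0.267), on the mean of its probe sets (-0.13, adjusted p = 0.564), and without replicate 2 or 3 (-0.25 and -0.30, adjusted p = 0.125 and 0.0514). Its other probe set above the filter, which was dimmer, changed by -0.35 at 24 h and 0.06 at 48 h without passing the test over all probe sets.

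Glb1 gave 10.53, 10.22, 10.54 and 10.37 in TCDD cells at 36 h, against 9.88, 9.89, 10.19 and 9.94 in DMSO cells. The lowest TCDD array stood just above the highest DMSO array, DMSO replicate 3, and the change was 0.44 ± 0.12 (adjusted p = 0.0205). The call was lost with only the arrays compared and with all probe sets tested (adjusted p = 0.0736 and 0.0773) and without replicate 1, 2 or 4 (0.37, 0.48 and 0.45, adjusted p = 0.162, 0.0937 and 0.0923). At 8, 12, 24 and 48 h the differences were -0.24, -0.13, 0.01 and 0.21. With the replicate block, Neu1 and Psap were called higher in TCDD cells at 24 h (by 0.32, adjusted p = 0.00578, and 0.25, adjusted p = 0.0129) and at 36 h (by 0.35, adjusted p = 0.00368, and 0.30, adjusted p = 0.00333), Mcoln1 higher at 36 h (by 0.47, adjusted p = 0.0117) and Gaa lower at 48 h (-0.33, adjusted p = 0.0482).

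**Figure D4:**
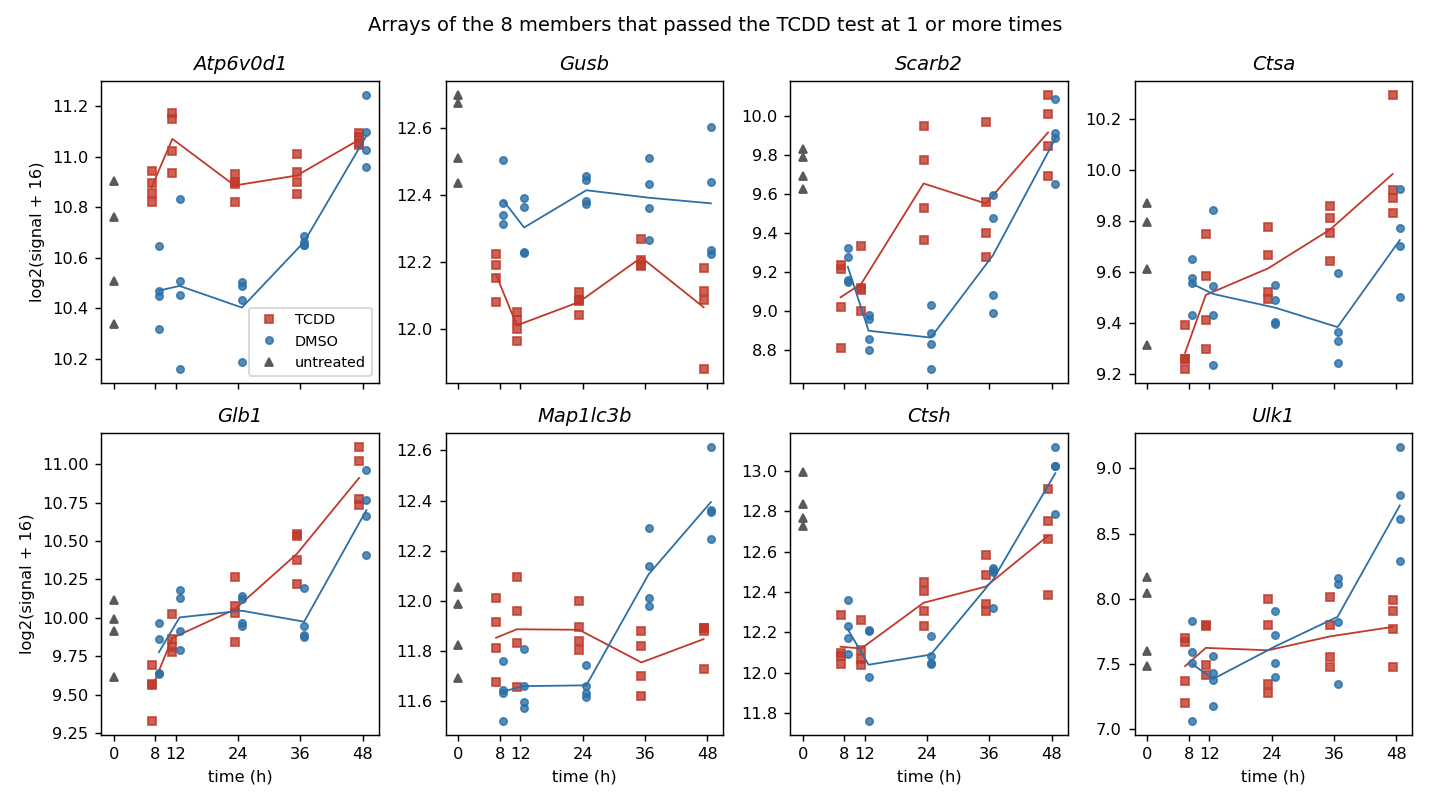
Log2(signal + 16) on every array over time (h) for the 8 members called in TCDD against DMSO cells at 1 or more times, with TCDD arrays as red squares, DMSO arrays as blue circles, untreated arrays as grey triangles at 0 h and lines through group means. Map1lc3b and Ulk1 lie higher at 48 h than at earlier times in DMSO arrays, and TCDD arrays of 48 h lie below the DMSO arrays of that time.

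Of the autophagy members, Map1lc3b was lower in TCDD than in DMSO cells at 36 and 48 h and Ulk1 at 48 h, and no other was called without a replicate block. Map1lc3b, whose lipid-bound product is the usual marker of autophagosomes, gave 11.88, 11.73, 11.89 and 11.89 in TCDD cells at 48 h, against 12.61, 12.35, 12.25 and 12.36 in DMSO cells. The groups were well apart, and the change was -0.55 ± 0.09 (adjusted p = 0.000101). Both other probe sets of the gene were called lower as well, with changes of -0.49 and -0.59. At 36 h the change was -0.35 ± 0.09 (adjusted p = 0.0172), whereas at 8, 12 and 24 h the TCDD means were higher by 0.21, 0.23 and 0.22 without passing the test (adjusted p = 0.259, 0.137 and 0.177). The difference between times is the F test value given for this gene, the smallest among the 33 members. The 36 h call was lost with only the arrays compared and with all probe sets tested (adjusted p = 0.111 and 0.0815), on the mean of its probe sets (-0.26, adjusted p = 0.232), and without replicate 1, 2 or 3 (-0.31, -0.32 and -0.34, adjusted p = 0.0992, 0.197 and 0.129).

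Ulk1 gave 7.99, 7.47, 7.77 and 7.91 in TCDD cells at 48 h, against 8.80, 9.17, 8.61 and 8.29 in DMSO cells. The groups lay apart, with DMSO replicate 2, which stood apart in the technical measures, the highest, and the change was -0.93 ± 0.20 (adjusted p = 0.0014), the largest of any member in a TCDD comparison. It was -0.78 without the 4 arrays standing apart (adjusted p = 0.00979), and the call was lost without replicate 2 (-0.68, adjusted p = 0.0952). Its other probe set above the filter changed by -0.85 with a larger error and did not pass. At 8, 12, 24 and 36 h Ulk1 differed by -0.02, 0.24, -0.03 and -0.15. With the replicate block Atg12 was also called lower at 48 h (-0.52, adjusted p = 0.000676, against 0.115 without it), and Gabarap higher at 12 and 24 h (0.35, adjusted p = 0.00373, and 0.31, adjusted p = 0.0118). Map1lc3b and Ulk1, and with the replicate block also Atg12, Ctsd and Gaa, were lower in TCDD than in DMSO cells at 48 h and higher in DMSO cells at 48 h than in untreated cells. Both comparisons use the same 4 DMSO arrays, so a high or low value in these enters both.

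A further 89 tested genes of the same pathways, listed by name, were counted in the same fit. These lists were drawn up with earlier results of these data known. Their shares come from the same arrays and are not an independent check of the members. At 48 h of DMSO, 30 of them (33.7%) were higher and 17 (19.1%) lower than in untreated cells, beside 23.4% and 20.5% of all genes. At 8 h 7 (7.87%) were higher and 23 (25.8%) lower, beside 11.2% and 13.4% of all genes. These shares of all genes stand beside the lists that follow too. Of 24 other lysosomal hydrolases and cofactors, 13 were higher and 2 lower at 48 h, against 1 and 12 at 8 h. Laptm4a and Laptm5, lysosomal membrane proteins, were higher at 48 h by 1.09 ± 0.12 and 0.98 ± 0.13 (adjusted p = 1.63e-09 and 1.81e-07), while Ctsc, the dipeptidyl peptidase cathepsin C, and Tpp1, a tripeptidyl peptidase, were lower, with changes of -1.15 ± 0.10 and -0.53 ± 0.10 (adjusted p = 1.01e-11 and 4.34e-05). Of 25 other autophagy genes, 11 were higher and 4 lower at 48 h, led by Nbr1, a receptor for ubiquitinated cargo (1.53 ± 0.15, adjusted p = 1.58e-10), and Atg13, a partner of ULK1 (1.26 ± 0.15, adjusted p = 1.34e-08). The lower ones included Atg16l1 (-0.61 ± 0.10, adjusted p = 6.69e-06).

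Of 12 genes that sort enzymes to lysosomes, 0 were called higher and 6 lower at 48 h by limma, beside 23.4% and 20.5% of all genes, and the counts were also 0 and 6 at an unadjusted p under 0.05. Gnptab, which makes the mannose 6-phosphate tag of lysosomal enzymes, changed by -1.05 ± 0.14 (adjusted p = 5.34e-08) and M6pr, a receptor for that tag, by -0.66 ± 0.07 (adjusted p = 1.14e-09). Proton pump subunits other than the members split into 3 higher and 2 lower of 13, led by Atp6v0a2 and Atp6v1h (0.55 ± 0.16 and 0.55 ± 0.12), and the TFE factors and nutrient-sensing genes into 3 and 3 of 15. Sesn2, a stress-induced leucine sensor, was higher by 1.16 ± 0.21 (adjusted p = 1.86e-05) and Lamtor1, an anchor of the mTORC1 platform on lysosomes, was lower (-0.72 ± 0.10, adjusted p = 3.70e-07). At 8 h Mitf, a relative of Tfeb, was lower (-1.04 ± 0.14, adjusted p = 6.70e-07), beside the lower Tfeb of that time. Tfe3, the other relative of Tfeb measured, which was chosen after its value was seen, was also lower (-0.52 ± 0.18, adjusted p = 0.0314).

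With TCDD at 48 h, 6 of the 89 genes (6.74%) were higher and 3 (3.37%) lower than with DMSO, beside 4.31% and 4.54% of all genes. Gnptab was higher by 1.04 ± 0.14 (adjusted p = 1.08e-06), and its partner Gnptg by 0.55 ± 0.14 (adjusted p = 0.00663). Gnptab passed the test at 8, 12, 24 and 36 h as well, by 0.51 ± 0.14, 0.50 ± 0.14, 0.79 ± 0.14 and 0.68 ± 0.14, and so did the pump subunit Atp6v1d at all 5 times, with its largest change at 24 h (0.53 ± 0.07, adjusted p = 8.69e-07). Tpp1 and Manba, a beta-mannosidase, were higher at 48 h by 0.46 ± 0.10 and 0.34 ± 0.08 (adjusted p = 0.00192 and 0.00355). Atg13 was lower (-0.74 ± 0.15, adjusted p = 0.000979), beside the lower Ulk1. The 48 h changes of Gnptab, Tpp1 and Atg13 against untreated cells, given further up, rest on the same DMSO arrays. A high or low value in these arrays enters both comparisons. Lgmn, the asparagine endopeptidase, changed by -0.47 ± 0.12 (adjusted p = 0.0114) and Gga2, an adaptor that binds mannose 6-phosphate receptors, by -0.23 ± 0.07 (adjusted p = 0.0402). Larger changes of Gga2 came earlier, with -0.49, -0.46 and -0.27 at 8, 12 and 24 h (adjusted p = 1.10e-05, 2.19e-05 and 0.0118). At 36 h Gga2 was not called (-0.18, adjusted p = 0.157).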

How the data were processed

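The deposited intensity values are one array's signal per probe set on a linear scale. In every array their mean is 500 after the lowest and highest 2% are left out. The sources used here name GCOS 1.0 as the software and no other step, and a scaling to 500 is read from the values only. Of 45101 probe sets, 64 controls were left out, 34945 have a single symbol in the platform annotation, 932 have several and 9160 are not named here. Through gene IDs 34741 were matched to RefSeq, and 0 symbols changed. Signals were quantile normalized and set to log2(signal + 16). Each gene was read from its brightest single-symbol probe set and kept where its highest group mean exceeded the median of all values, 6.21. One model with the 11 groups (33 residual degrees of freedom) was fitted with limma 3.58.1 in R 4.3.3, two-sided, with Benjamini-Hochberg adjustment over 11970 genes and a threshold of 0.05. The difference of TCDD effects between times is an F test of 4 contrasts. Python 3.11.15 with matplotlib 3.10.9 drew the figures.

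Replicate numbers pair the arrays, since by the study's design replicates were handled on separate days and the titles give every number a date of its own, although they do not say which step it marks. Over 20 TCDD and DMSO pairs of the same number, 18 had deviations from the group means that correlated above 0.1 (median r 0.176 for the same number over all groups, -0.07 for different numbers). The 4 arrays per group limit the precision, and p-values reflect how cultures of 1 line varied over 4 replicates. The members, pathway lists and tests were chosen with earlier results of these data known. Array values are given for the members called with TCDD, at the time of the smallest adjusted p, and for the 8 largest non-overlapping changes of DMSO 48 h against untreated cells. Tfeb was added after its values were seen. Of each other pathway list, up to 2 genes per direction are named by size of change. The 16 alternatives changed the block, arrays, filter, normalization, probe sets, pseudocount or variance model.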

Additional observations from a re-analysis of the deposited data

Results flagged for a closer look

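Of 363 groups of 4 arrays (33 members in 11 groups), 20 held 1 array farther from the other three, relative to the group's range, than the critical value of Dixon's test allows, and chance flags about 1 in 20 groups. Tfeb was at 8.83 in DMSO 12 h replicate 3 (above the others at 7.99 to 8.02). Lamp1 was at 11.62 in TCDD 12 h replicate 4 (above the others at 11.05 to 11.11). Ctsb was at 11.73 in untreated 0 h replicate 1 (below the others at 12.06 to 12.10) and 11.63 in DMSO 12 h replicate 1 (below the others at 11.98 to 12.05). Ctsd was at 9.87 in TCDD 12 h replicate 1 (below the others at 10.13 to 10.18) and 10.26 in DMSO 36 h replicate 1 (below the others at 10.56 to 10.59). Ctsh was at 12.32 in DMSO 36 h replicate 4 (below the others at 12.50 to 12.52). Ctss was at 13.29 in untreated 0 h replicate 4 (above the others at 13.01 to 13.02). Gaa was at 10.55 in DMSO 48 h replicate 1 (below the others at 10.997 to 11.02). Neu1 was at 9.79 in DMSO 8 h replicate 1 (below the others at 10.27 to 10.32), 9.87 in DMSO 12 h replicate 1 (below the others at 10.29 to 10.33) and 10.32 in TCDD 36 h replicate 2 (above the others at 10.05 to 10.10). Psap was at 11.50 in TCDD 12 h replicate 1 (below the others at 11.71 to 11.73). Becn1 was at 12.18 in DMSO 24 h replicate 2 (below the others at 12.38 to 12.39) and 12.06 in TCDD 48 h replicate 3 (below the others at 12.55 to 12.57). Wipi1 was at 8.75 in untreated 0 h replicate 4 (above the others at 7.51 to 7.70). Atg3 was at 12.63 in TCDD 8 h replicate 3 (below the others at 12.70 to 12.71) and 12.55 in DMSO 48 h replicate 2 (below the others at 12.94 to 13.002). Atg5 was at 9.66 in DMSO 8 h replicate 3 (below the others at 9.81 to 9.83). Map1lc3b was at 11.73 in TCDD 48 h replicate 2 (below the others at 11.88 to 11.89). Of these arrays, untreated 0 h replicate 4 and DMSO 48 h replicate 2 are among the 4 that stood apart in the technical measures, and what part that had in the values was not tested.

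The TCDD effect differed between times for 5 members by limma's F test, with adjusted p of 3.47e-05 for Map1lc3b, 0.0105 for Scarb2, 0.0382 for Atp6v0d1, 0.0390 for Glb1 and 0.0400 for Ulk1. Map1lc3b changed by 0.22 at 24 h and -0.55 at 48 h, Scarb2 by 0.79 at 24 h and 0.03 at 48 h, Atp6v0d1 by 0.58 at 12 h and -0.02 at 48 h, Glb1 by -0.24 at 8 h and 0.44 at 36 h, and Ulk1 by 0.24 at 12 h and -0.93 at 48 h. The share of all genes called by this test is 6.98%, and the number of members called fell to 1 or 2 when 1 replicate was left out.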

How the results depend on the processing

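Of the 83 member changes called, 0 changed direction under any of the 16 alternatives. All 83 stayed called with the replicate block, with the replicate number as a random block, with a stricter filter and with a pseudocount of 1, and 82 with a pseudocount of 64 or an intensity trend. The numbers kept were 77 on the values as deposited, 72 without the filter, 72 without the 4 arrays standing apart, 71 on the mean of probe sets, 67 with all probe sets tested, 51 with only the compared arrays in the fit, and 73, 60, 62 and 70 without replicate 1, 2, 3 and 4. Counts of members called for TCDD against DMSO at 8, 12, 24, 36 and 48 h were 1, 2, 3, 3 and 4. With the replicate block they were 2, 4, 6, 6 and 8 (7 at 48 h without Ctsl), and with the random block 2, 6 and 6 at 8, 24 and 36 h. With only the compared arrays they were 0, 0, 0 and 2 at 8, 12, 36 and 48 h (limma, with 3, 6 and 7 members at an unadjusted p under 0.05 where the count was 0). The mean of probe sets gave 1, 5 and 1 at 12, 24 and 36 h, and all probe sets tested gave 0, 1 and 0 at 8, 12 and 36 h (4 and 8 unadjusted where the count was 0). Without the 4 arrays standing apart they were 2 and 5 at 8 and 12 h. Leaving out 1 replicate gave 0 to 1 at 8 h, 1 to 2 at 12 h, 2 to 4 at 24 h, 0 to 1 at 36 h and 1 to 4 at 48 h. For a TCDD effect that differed between times the count was 5, and it was 10 with the replicate block, 8 with the random block, 2 without the filter or with all probe sets, and 1 to 2 when 1 replicate was left out. For DMSO against untreated cells the counts at 8, 12, 24, 36 and 48 h were 10, 9, 5, 6 and 20. The replicate block and the random block both gave 9 at 24 h and 12 at 36 h, and only the compared arrays gave 4, 4, 3 and 12 at 8, 12, 36 and 48 h. Without the 4 arrays standing apart the count at 24 h was 8. Leaving out 1 replicate gave 5 to 8, 6 to 9, 4 to 8, 5 to 9 and 16 to 19 at the 5 times, and 19 to 20 for DMSO 48 h against 8 h, where the count was 20. Fewer residual degrees of freedom stand behind the smaller fits, and more tests behind the fit of all probe sets. For the other shifts the cause was not tested. Counts in this section are of members only, and all genes shifted too. With the replicate block 27.7% and 39.5% of all genes were called in DMSO against untreated cells at 24 and 36 h, beside 19.7% and 31.3% without it. With all probe sets tested, 1.03%, 2.28% and 1.34% of them were called for TCDD at 8, 12 and 36 h. The main fit called 4.15%, 9.21% and 5.89% of all genes there. The shifts in member counts are therefore not read as particular to the members. Dim probe sets limit Ctsl.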
